A study of Mus musculus with 2 samples.

Results

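Ccl2, Ccl7, Ccl12, Ccl8 and Ccl24, 5 CC chemokine genes of the monocyte and eosinophil attracting kind, were followed through leukocytes of pressure-loaded mouse hearts. They were chosen by symbol and all 5 were found among 32286 features. In the study, cardiac leukocytes were compared between mice transplanted with LOY marrow, in which the Y chromosome is lost, and mice transplanted with Control marrow. Both groups underwent TAC (transverse aortic constriction, in which a band around the aortic arch raises the pressure against which the left ventricle pumps). Cells that carried CD45 and the RFP of the transplanted marrow were sorted from digested left ventricles, and cells from 3 mice were pooled after sorting into 1 library per group, with no library of unloaded hearts used here. Cells from the host that lack RFP were outside the sort, and the age and strain of the mice and the way LOY was made are not stated in the labels. With 1 library per group no difference has a replicate check, and no test was run. The 95% intervals cover counting error only, and since UMIs of these genes were bunched in single cells, they are narrower than the spread between mice could be.

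CC chemokines are small secreted proteins that draw leukocytes along a gradient through G protein-coupled receptors. Ccl2 (MCP-1), Ccl7 (MCP-3) and Ccl12 (MCP-5, a mouse gene) act on Ccr2, the receptor by which classical monocytes leave the marrow and enter the injured heart, and Ccl7 also acts on Ccr1 and Ccr3. Mouse Ccl8 (MCP-2) acts on Ccr8, whereas Ccl24 (eotaxin-2) acts on Ccr3, the receptor of eosinophils. Resident heart macrophages that carry Lyve1 and Folr2 live long, and macrophages that derive from Ccr2+ monocytes replace or join them after injury.

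Ccl2, Ccl7, Ccl12 and Ccl8 lie side by side on mouse chromosome 11, on the plus strand of GRCm38 by the GENCODE M21 annotation. Ccl2 occupies chr11:82035571-82037453, Ccl7 chr11:82045712-82047525, Ccl12 chr11:82101845-82103400 and Ccl8 chr11:82115185-82116799, a span of 81229 bp that also holds Ccl11. Ccl24 stands apart at chr5:135569937-135573049 on the minus strand. The coding sequences of Ccl7, Ccl8 and Ccl12 matched at 63.6% to 66.6% of aligned positions, gaps counted, and the longest identical stretch between any pair of the 5 main transcripts was 23 bases, between Ccl2 and Ccl7. The neighbours Ccl12 and Ccl8 were both abundant here and yet peaked in different macrophage clusters. Their promoter windows, the only ones at hand for the 5 members, are shown. They are the 250 bases before the gene's start, from RefSeq on GRCm38.p6, plus strand, at chr11:82101595-82101844 for Ccl12 and chr11:82114935-82115184 for Ccl8, with capitals at the TATA box.

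Ccl12: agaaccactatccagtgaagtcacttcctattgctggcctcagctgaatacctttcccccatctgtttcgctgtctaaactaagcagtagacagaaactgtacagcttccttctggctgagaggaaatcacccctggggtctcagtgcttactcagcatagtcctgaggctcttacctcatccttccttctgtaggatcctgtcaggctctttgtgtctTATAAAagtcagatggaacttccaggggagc
Ccl8: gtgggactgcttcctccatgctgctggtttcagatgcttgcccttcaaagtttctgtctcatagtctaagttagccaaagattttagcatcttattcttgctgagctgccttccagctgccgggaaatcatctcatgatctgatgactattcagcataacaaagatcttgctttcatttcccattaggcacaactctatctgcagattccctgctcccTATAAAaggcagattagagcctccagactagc

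Both windows held TATAAA on the gene's strand, beginning 31 bases before the start in Ccl12 and 32 bases before it in Ccl8, a motif found on the gene's strand in 7.59% of 32851 promoter windows of this length. Over an alignment of the 2 windows 56.9% of 283 columns matched. Neither window held TGANTCA (AP-1, in 6.75% of windows), TTCNNNGAA (STAT, in 7.02%) or the 10-base NF-kB consensus (in 7.25%), read on both strands. That says only that these letters are not in these windows.

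UMIs (unique molecular identifiers, 1 per captured transcript) numbered 18710715 over 5475 barcodes in the LOY library, with a median of 3026, against 7276 barcodes, 42640861 UMIs and a median of 5109.5 in the Control library. After filters 5177 LOY cells and 6577 Control cells were kept. Y-linked genes checked the labels, with 14.3 CPM (UMIs of a gene per 1000000 UMIs of the cells summed) in the LOY library and 124 CPM in the Control library. Transcripts of Ptprc, which encodes CD45, were seen in 73.8% of kept LOY cells and 84.4% of kept Control cells, while RFP, listed as a feature, had 0 UMIs in either library. The libraries shared 31 barcodes.

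The cells fell into 22 clusters, found without chemokine genes, so that the 5 genes had no part in defining them. Each is called by its leading gene. Of these, 7 were macrophage-like by their markers, with 3138 LOY cells and 3172 Control cells: the Gpnmb cluster, the Ifit2 cluster (interferon-response genes), the Egr1 cluster (immediate-early genes), the Cd209f and Fcna clusters (both closest to Lyve1+ resident macrophages), the cycling Hist1h1b cluster and the H2-Eb1 cluster (MHC class II). The Ly6c2, Slc40a1, Cd209a, Myl7 and Fabp4 clusters were closest to macrophages but stayed unnamed, because markers of another cell type stood among their leading genes. Several clusters came mostly from 1 library: the Gpnmb cluster had 1262 LOY cells and 36 Control cells, the Ly6c2 cluster 903 and 68, the Fcna cluster 757 and 109, the Egr1 cluster 65 and 1228, and the Slc40a1 cluster 84 and 1177. Such a cluster may be a library rather than a state. Levels are therefore compared within clusters that held at least 50 cells of each library.

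Macrophage-like cells and the clusters closest to them held nearly all of these transcripts in both libraries. The clusters closest to macrophages, which made up 84.1% of LOY cells and 71.6% of Control cells, held 94.9% (LOY) and 95.4% (Control) of Ccl2 UMIs. For the other 4 genes they held 97.5% to 99.5% of UMIs in the LOY library and 96.7% to 99.6% in the Control library. All 5 genes together took 0.148% of LOY UMIs and 0.153% of Control UMIs. In the LOY library the Fcna cluster alone held 56.7% of Ccl8 UMIs and 49.5% of Ccl24 UMIs with 14.6% of the cells. In the Control library the Slc40a1 and Cd209f clusters filled that place, with 41.1% and 32.8% of Ccl8 UMIs and 42.0% and 25.5% of Ccl24 UMIs from 17.9% and 4.9% of the cells.

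**Figure D1:**
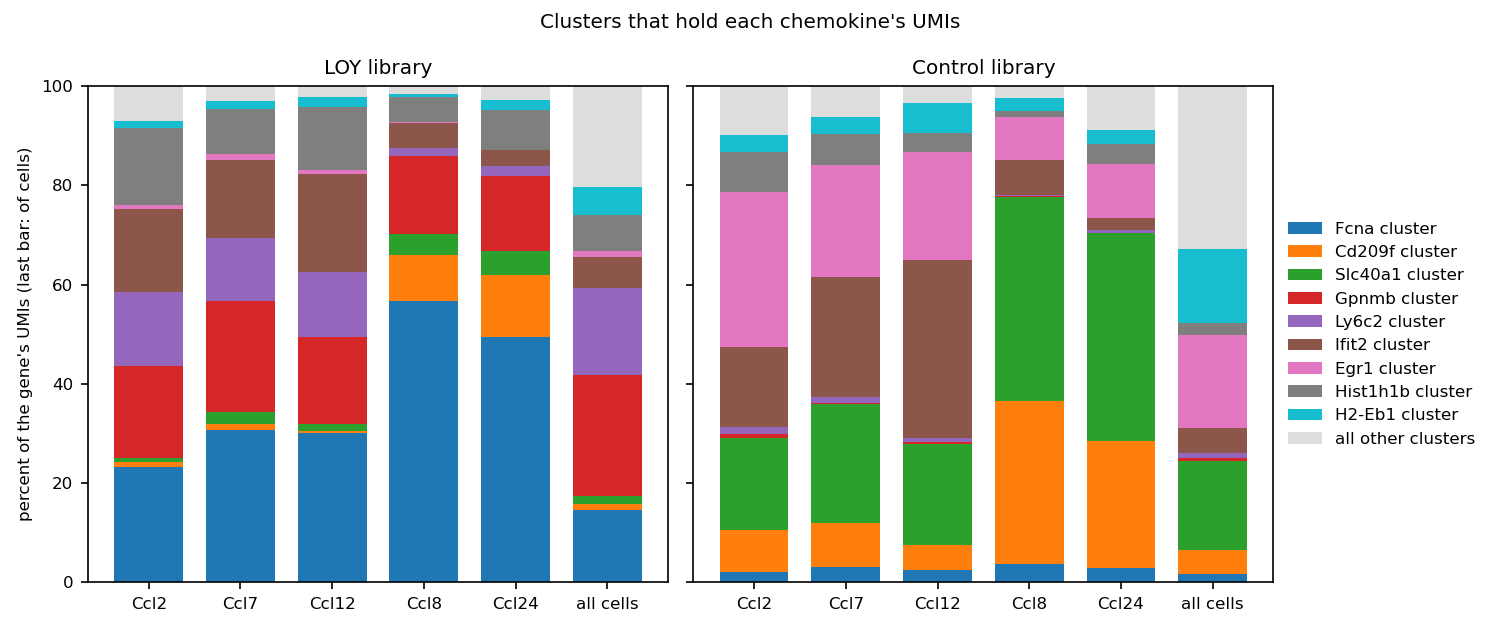
Percent of each chemokine's UMIs held by each cluster (y axis), for the LOY library at left and the Control library at right, with the percent of all cells in the last bar. The Fcna cluster (blue) held 56.7% of Ccl8 UMIs in the LOY library and 3.8% in the Control library, where the Slc40a1 cluster (green) held 41.1%.

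Outside these clusters the chemokines were scarce, apart from classical monocyte-like cells, where Ccl2 and Ccl7 in both libraries and Ccl12 in the LOY library stood above background. Ccl2 in Control neutrophil-like cells (S100a9 cluster) also lay above background at a low level, 21.1 CPM (interval 11.8 to 34.7). B cell-like cells, which should lack these genes, gave the background of free RNA, with 50.3 CPM of Ccl8, 18.3 CPM of Ccl12 and 9.15 CPM of Ccl2 in the LOY library and 26.0, 7.34 and 3.39 CPM in the Control library. Ccl2 stood far above that in the Chil3 cluster of classical monocyte-like cells, at 156 CPM in LOY cells (95% interval 125 to 192) and 198 CPM in Control cells (ratio 0.79, interval 0.61 to 1.01). A single Control cell there held 51 of the 271 Ccl2 UMIs, and also 16 UMIs of the macrophage gene C1qa. In the Control NK cell-like (Gzma) cluster, 59 of 62 Ccl2 UMIs and 84 of 85 Ccl7 UMIs lay in 1 cell, which also held 50 UMIs of the macrophage gene C1qa beside 53 of Gzma. Likewise 91 of 93 Ccl8 UMIs of the Control Ctla2a (platelet-like) cluster lay in 1 cell with 90 C1qa UMIs. Levels of the Gzma and Ctla2a clusters are therefore not read further.

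Ccl2 was highest in the interferon-response macrophages of both libraries and lower in LOY cells across macrophage clusters. In the Ifit2 cluster it reached 280 CPM in LOY cells (interval 250 to 312) and 616 CPM in Control cells, a ratio of 0.45 (0.40 to 0.51). Next in the LOY library came the Chil3 cluster at 156 CPM and the Hist1h1b cluster at 151 CPM, whose intervals overlapped. In the Control library the Hist1h1b cluster at 413 CPM and the Egr1 cluster at 370.0 CPM followed, also with overlapping intervals. Ccl2 was below the Control level in 9 of 9 clusters closest to macrophages that could be compared, each with an interval of the ratio under 1, by a median log2 ratio of -1.39. The ratio ranged from 0.25 in the Cd209f cluster (67.3 CPM in LOY cells, 271 CPM in Control cells) to 0.64 in the H2-Eb1 cluster (44.3 and 68.8 CPM).

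Ccl7 shared its peak with Ccl2 but not the even shift. In the Ifit2 cluster it reached 383 CPM in LOY cells and 561 CPM in Control cells (ratio 0.68, interval 0.61 to 0.76). The Fcna cluster followed with 239 CPM in LOY cells and 228 CPM in Control cells, a ratio of 1.05 (0.89 to 1.25). In the cycling Hist1h1b cluster it had 130 CPM in LOY cells and 201 CPM in Control cells, whereas the H2-Eb1 cluster had 66.5 CPM in LOY cells and 39.98 CPM in Control cells. Over the 9 clusters the log2 ratio ran from -0.82 to 0.61 with a median of -0.13, with values on both sides of 0.

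Ccl12 was the chemokine most tied to the interferon-response cluster. There it reached 1055 CPM in LOY cells and 2010 CPM in Control cells (ratio 0.52, interval 0.49 to 0.56), against 511 and 451 CPM in the Fcna cluster, second in both libraries. The Ifit2 cluster, with 6.4% of LOY cells and 5.0% of Control cells, held 19.8% of LOY and 35.9% of Control Ccl12 UMIs. The Cd209f cluster had 123 CPM in LOY cells and 241 CPM in Control cells. In the Hist1h1b cluster the order was the other way, with 395 CPM in LOY cells and 294 CPM in Control cells, and in the other clusters closest to macrophages apart from the Cd209a cluster (7.68 and 72.1 CPM) the ratio lay between 0.79 and 1.13.

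Ccl8 was the most abundant of the 5 and marked the resident-type clusters. It reached 5267 CPM in LOY cells of the Cd209f cluster and 3265 CPM in Control cells (ratio 1.61, interval 1.52 to 1.71), 2336 and 1443 CPM in the Fcna cluster (1.62, 1.52 to 1.73), and 2009 and 1375 CPM in the Slc40a1 cluster (1.46, 1.35 to 1.58). These were the 3 highest clusters in both libraries. One Control cell held 276 of the 1034 Ccl8 UMIs of the Fcna cluster, and without it the Control level there was 1078 CPM. One LOY cell held 126 of 620 in the Slc40a1 cluster, and without it the LOY level was 1644 CPM, which leaves a log2 ratio of 0.26, against 0.54 with it. Among the clusters with less Ccl8 the direction varied. The Hist1h1b cluster had 382 CPM in LOY cells and 208 CPM in Control cells, and the Ly6c2 cluster 86.4 and 23.5 CPM. In contrast the Ifit2 cluster had 655 CPM in LOY cells and 852 CPM in Control cells, and the Egr1 cluster 122 and 314 CPM. The LOY value of the Egr1 cluster rested on 65 cells, with 12 of 19 UMIs in 1 cell, and was 45.9 CPM without that cell.

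Ccl24 was the least abundant and, like Ccl8, highest in the Cd209f cluster, with 281 CPM in LOY cells (interval 220 to 355) and 323 CPM in Control cells (ratio 0.87, 0.67 to 1.11). The Slc40a1 cluster had 87.5 CPM in LOY cells and 179 CPM in Control cells (0.49, 0.32 to 0.72), and the Fcna cluster 79.9 and 141 CPM (0.57, 0.45 to 0.72). In the Hist1h1b cluster the levels were 23.2 CPM in LOY cells and 79.9 CPM in Control cells. Single cells weighed on several of these values. One Control cell of the Cd209a cluster held 231 of 278 UMIs, and leaving it out moved the log2 ratio there to -1.16, against -3.26 with it. One Control cell of the Fcna cluster held 29 of 101, and leaving it out moved the log2 ratio to -0.34, against -0.75 with it.

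**Figure D2:**
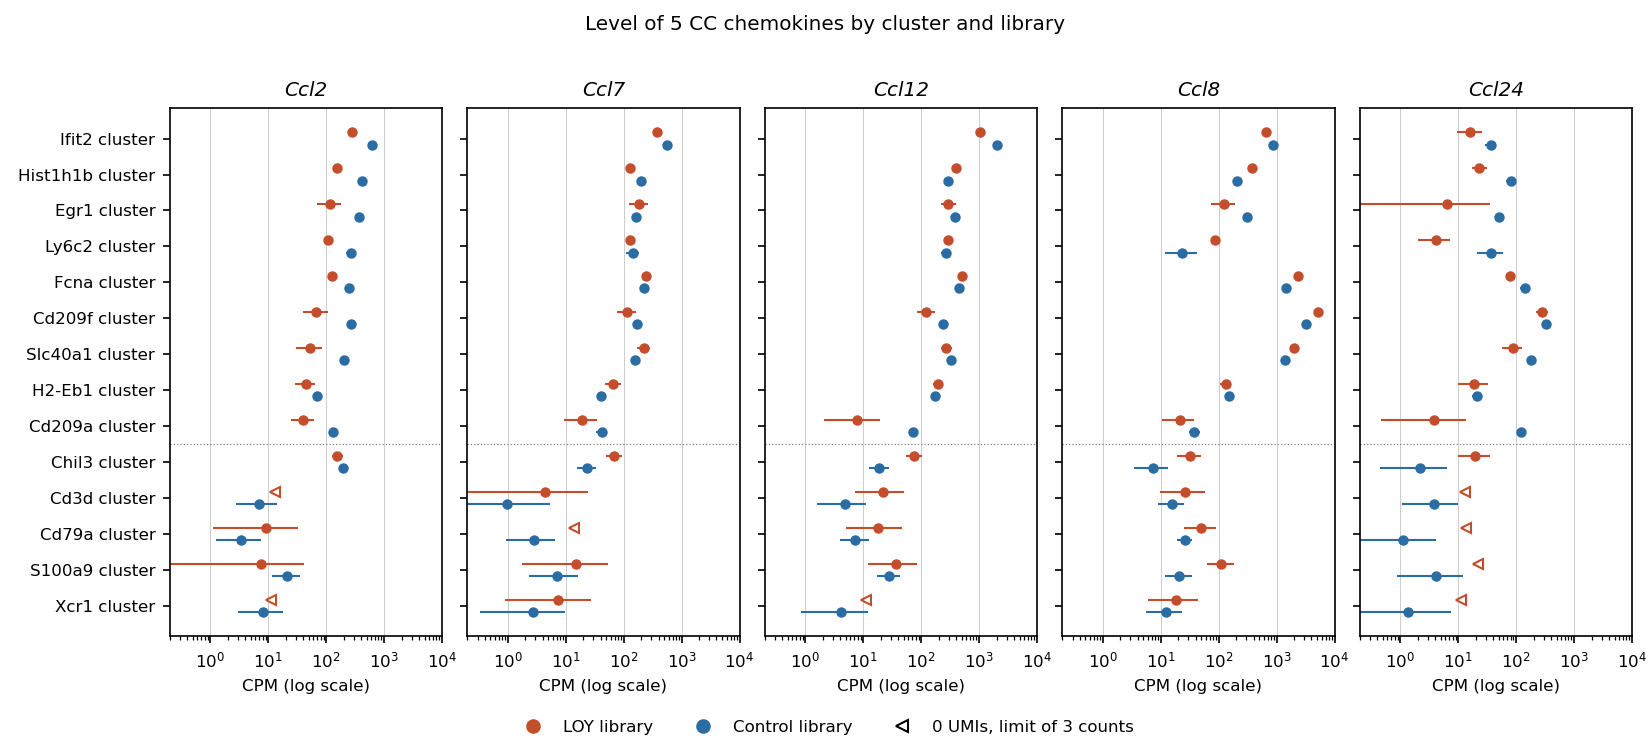
CPM of each chemokine (x axis, log scale) in 14 clusters with at least 50 cells of each library (rows), LOY points above Control points, with 95% Poisson intervals; open triangles mark 0 UMIs at the limit that 3 counts set, and the dotted line divides clusters closest to macrophages (above) from others. Ccl2, Ccl7 and Ccl12 peak in the Ifit2 cluster, Ccl8 and Ccl24 in the Cd209f cluster, in both libraries.

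Set against all genes, the difference of Ccl2 and Ccl24 between libraries recurred in more clusters than that of most genes. A gene is counted here when log2((LOY CPM + 10)/(Control CPM + 10)) passed 1.5-fold. The background is 5753 genes whose mean over both libraries was at least 10 CPM in each of the 9 clusters, as was that of all 5 chemokines. Ccl2 passed it below Control in 8 of 9 clusters and Ccl24 in 7 of 9, while 2.49% of these genes did so in at least 8 and 4% in at least 7. For Ccl24 the Fcna cluster no longer counts without 1 Control cell (log2 ratio -0.34), and the Ly6c2, Egr1 and Cd209a clusters rest on 11, 1 and 2 LOY UMIs. Ccl8 passed it above Control in 4 of 9 (6.03% of genes in at least 4) and below it in 2. Ccl12 passed it below Control in 3 of 9, as did 17.7% of genes in at least 3, and Ccl7 in 2 of 9, as did 27.8% in at least 2. Ccl7 also passed it above Control in 1 of 9, as did 32.6% of genes in at least 1. Neither Ccl7 nor Ccl12 stands out by this count. The 9 clusters share their 2 libraries and are not replicates.

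**Figure D3:**
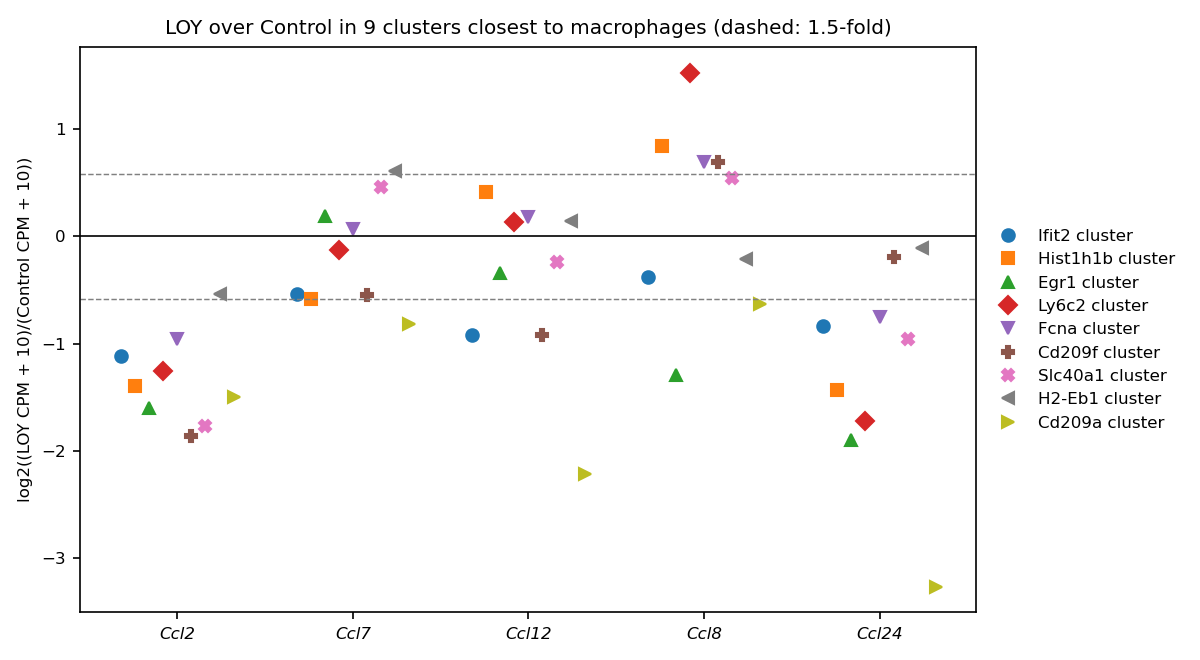
log2 of LOY over Control CPM, 10 CPM added to each (y axis), for each chemokine (x axis) in 9 clusters closest to macrophages, 1 symbol per cluster; dashed lines mark 1.5-fold. All 9 values of Ccl2 and of Ccl24 lie below 0, while those of Ccl8 run from -1.29 in the Egr1 cluster to 1.52 in the Ly6c2 cluster.

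Summed over all macrophage-like cells, Ccl2 had 122 CPM in the LOY library and 314 CPM in the Control library (ratio 0.39, interval 0.37 to 0.41). Ccl24 had 43.1 CPM in the LOY library and 85.6 CPM in the Control library (0.50, 0.45 to 0.56). Both were past 1.5-fold below Control, as were 7.56% of 7848 genes. Ccl7 had 187 CPM in both libraries (1.002, 0.95 to 1.06) and Ccl12 418 CPM in the LOY library and 497 CPM in the Control library (0.84, 0.81 to 0.87). Ccl8 had 1124 CPM in the LOY library and 785 CPM in the Control library (1.43, 1.40 to 1.47), a sum that follows which clusters are counted: most LOY cells of this class lay in the Gpnmb and Fcna clusters and most Control cells in the Egr1 and H2-Eb1 clusters. With all clusters closest to macrophages the Ccl8 ratio was 1.05 (1.03 to 1.07), and without the Egr1 cluster the log2 ratio of Ccl8 in macrophage-like cells was 0.0845. Under 8 of the other settings it was past 1.5-fold above Control, from 0.69 at clustering resolution 0.5 to 1.60 with the automatic doublet threshold in the Control library alone. With 50 CPM added in place of 10, the log2 ratio of Ccl24 there was -0.54, no longer past 1.5-fold. Over all kept cells the ratio was 0.47 for Ccl2, 1.11 for Ccl7, 1.002 for Ccl12, 1.15 for Ccl8 and 0.36 for Ccl24, and 9.03% of 7992 genes were past 1.5-fold below Control, as were Ccl2 and Ccl24. Fewer cells of a producing state and less RNA per cell cannot be told apart in such sums.

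Genes of tissue dissociation and cell stress were also lower in the LOY library, beside Ccl2. In macrophage-like cells 20 of 25 listed stress genes were past 1.5-fold below Control and 0 above, with a median log2 ratio of -1.61 against 0.02 over all genes, and their sum was 10161 CPM in LOY cells and 22136 CPM in Control cells. Btg2 (143 and 1292 CPM) and Cebpb (100 and 670.2 CPM) were the lowest, Hspe1 (308 and 218 CPM) and Hsp90ab1 (2028 and 1879 CPM) the highest. The summed level was nearly equal in the Fcna cluster (9967 CPM in LOY cells, 9647 CPM in Control cells), the Slc40a1 cluster (14991 and 15533 CPM) and the H2-Eb1 cluster (9590 and 10417 CPM), although single genes differed: 6 of the 25 were past 1.5-fold below Control and 3 above it in the Fcna cluster, 5 and 4 in the Slc40a1 cluster, and 8 and 2 in the H2-Eb1 cluster, with Cebpb among the 2 lowest in each. In those clusters the Ccl2 ratio was 0.50 (0.42 to 0.59), 0.26 (0.15 to 0.42) and 0.64 (0.42 to 0.95). In the other clusters of the 9 the stress sum was lower in LOY cells. It was 12517 CPM (LOY) and 28703 CPM (Control) in the Cd209f cluster, where the Ccl2 ratio was 0.25. The Ifit2 cluster had 10652.5 and 18007 CPM (Ccl2 ratio 0.45) and the Hist1h1b cluster 9388 and 14102 CPM (0.37). The Cd209a cluster had 12116 and 18991 CPM (0.30), the Egr1 cluster 24381 and 31450 CPM (0.31) and the Ly6c2 cluster 11916 and 15922 CPM (0.40). Of 12 measured genes of the NF-kB and TNF pathway, which induces Ccl2, 6 were past 1.5-fold below Control in macrophage-like cells and 0 above, with the lowest ratios for Il1b (109 CPM in LOY cells, 680.3 CPM in Control cells) and Tnfaip3 (19.9 and 80.6 CPM) and the highest for Nfkb2 (46.3 and 37.5 CPM) and Rela (72.0 and 62.0 CPM). Within clusters this list varied. In the Fcna, Slc40a1 and Egr1 clusters 1, 2 and 1 of its 12 measured genes were past 1.5-fold below Control, and 2 above it in each. The H2-Eb1 cluster had 2 below and 0 above. In the Ifit2, Hist1h1b and Cd209f clusters 4, 6 and 7 of 12 measured genes were below and 0 above. The Ly6c2 and Cd209a clusters had 5 and 6 of 13 below and 0 above. The share of all genes past 1.5-fold was not counted in single clusters, so the counts by cluster of both lists have no background. The median log2 ratio of the pathway list ran from -0.59 (Cd209f cluster) to 0.45 (Slc40a1 cluster), against -0.04 and -0.03 over all genes there. The part of these stress and pathway genes in the Ccl2 difference was not tested.

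The interferon list and Ccl12 differed in direction in some clusters and not in others. In macrophage-like cells, where 7.59% of 7848 genes were past 1.5-fold above Control and 7.56% below it, 1 of its 11 genes was past 1.5-fold above Control (Irf7, 445 CPM in LOY cells and 261 CPM in Control cells) and 2 below it, Cxcl9 (30.5 and 117 CPM) and Irf1 (62.5 and 109 CPM), while Ifit3 had 322 and 246 CPM. Within the Ifit2 cluster, where Ccl12 had a ratio of 0.52, the list summed to 11282 CPM in LOY cells and 9611 CPM in Control cells. In the Cd209f cluster the Ccl12 ratio was 0.51 and the median log2 ratio of the list 0.61, against -0.04 over all genes. In the Fcna cluster the Ccl12 ratio was 1.13 (1.005 to 1.28) and the median of the list 0.73, against -0.13 over all genes. Cxcl9 had the highest ratio of the list in the Fcna and Slc40a1 clusters. In the list of IL-4, IL-13 and STAT6 genes, a pathway that induces Ccl24, 3 of 10 were past 1.5-fold above Control and 4 below it. Chil3 (40.5 CPM in LOY cells, 3.56 CPM in Control cells) and Arg1 (25.2 and 1.88 CPM) had the highest ratios and reached 10 CPM in the LOY library alone, and Retnla (123 and 458 CPM) and Clec10a (33.3 and 103 CPM) had the lowest.

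The share of cells with a UMI was compared after thinning each cell to 2000 UMIs, which left 2664 of 3138 LOY and 3078 of 3172 Control macrophage-like cells. Ccl2 was seen in 15.2% of LOY cells (13.9% to 16.7%) and 20.6% of Control cells (19.2% to 22.1%), and unthinned in 22.3% and 32.3%. Ccl24 was seen in 5.89% of LOY cells and 9.26% of Control cells (unthinned 8.86% and 17.6%). Ccl8 went the other way, with 32.8% of LOY cells (31.0% to 34.6%) and 19.0% of Control cells (17.7% to 20.5%; unthinned 37.3% and 27.4%), but that gap too follows which clusters are counted: over all clusters closest to macrophages Ccl8 was seen in 26.8% of LOY cells (25.4% to 28.3%) and 24.7% of Control cells (23.4% to 26.0%), and unthinned in 31.2% and 35.0%. Ccl2 (14.4% and 18.9%) and Ccl24 (4.67% and 11.9%) kept their direction there at 2000 UMIs. For Ccl7 and Ccl12 the thinned shares (18.3% and 34.2% of LOY cells, 10.8% and 26.3% of Control cells; unthinned 24.4% and 42.5% against 18.6% and 40.4%) did not follow the CPM, and no order is read from them. At 1000 UMIs the highest share in B cell-like cells was that of Ccl8, 3.17% of 63 LOY cells and 2.13% of 797 Control cells, whose median depths before thinning were 864 and 2044.5 UMIs over the whole cluster. Macrophage-like cells had medians of 3342 UMIs (LOY) and 5380.5 UMIs (Control).

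**Figure D4:**
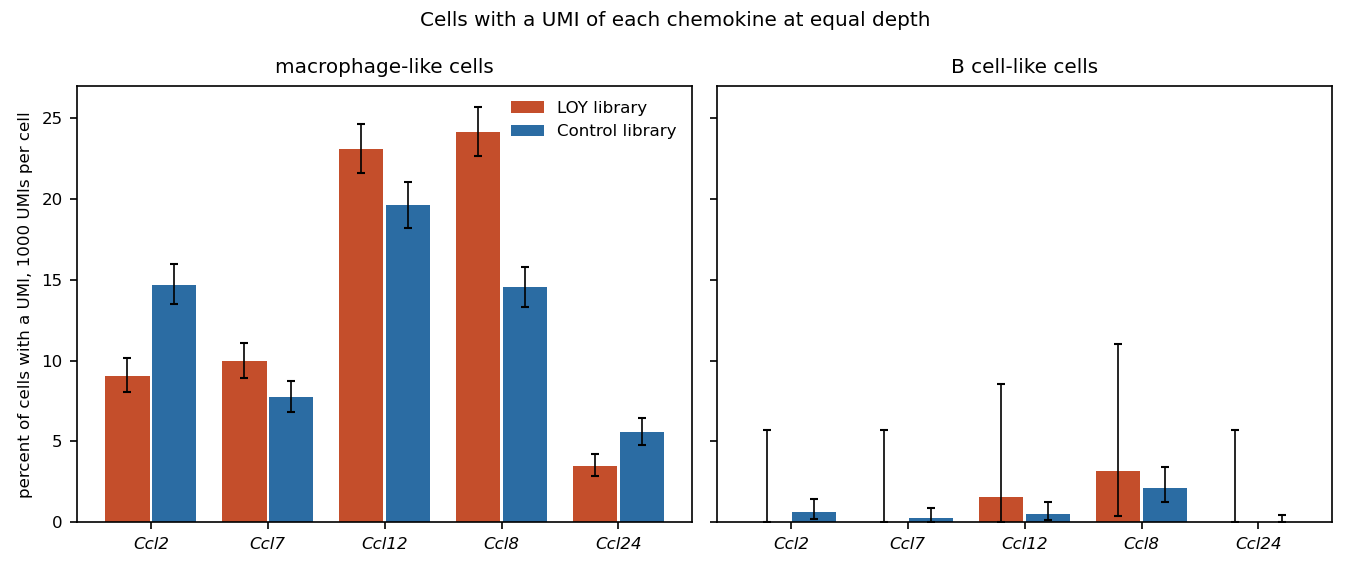
Percent of cells with at least 1 UMI of each chemokine after thinning to 1000 UMIs per cell (y axis), LOY bars left of Control bars, with 95% Clopper-Pearson intervals. In macrophage-like cells (left panel) Ccl8 was seen in 24.1% of LOY cells and 14.5% of Control cells (19.8% and 18.8% over all clusters closest to macrophages, not drawn), and in B cell-like cells (right panel) no share exceeded 3.17%.

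Over macrophage-like cells Ccl7 transcripts were bunched in fewer cells in the Control library. The 1% of macrophage-like cells richest in Ccl7 held 22.0% of its UMIs in LOY cells and 35.0% in Control cells, and a cell with any Ccl7 had a mean of 2.93 UMIs in the LOY library and 6.22 in the Control library, without correction for depth. For Ccl8 these 1% held 28.1% of UMIs in LOY cells and 39.1% in Control cells, and for Ccl12 17.1% and 22.1%. Over all kept cells the top 1% held 35.5% (LOY) and 37.5% (Control) of Ccl8 UMIs, so that gap depends on the cells counted, whereas for Ccl7 they held 25.4% and 42.1%. The Ccl7 gap differed between clusters. In the Ifit2 cluster, where Ccl7 peaked, the top 1% held 14.8% (LOY) and 14.9% (Control), and in the H2-Eb1 cluster 28.6% and 48.4%. Ccl2 was spread about alike, 20.8% in LOY cells and 21.7% in Control cells, whereas the richest 1% held more of Ccl24 in LOY cells, 37.8%, than in Control cells, 25.3%.

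Relative to the number expected from their shares, Ccl2 and Ccl7 were seen together in single cells more often than any of the other pairs in both libraries. At 2000 UMIs per cell 172 LOY macrophage-like cells had both, 2.31 times the number expected from their separate shares (interval 1.98 to 2.69), and 209 Control cells had both, 3.06 times the expected number (2.66 to 3.5). With the expected number summed over clusters, so that differences between clusters do not count, the values were 2.04 in LOY cells and 2.31 in Control cells. Of LOY cells with Ccl2, 42.4% had Ccl7, against 14.0% of those without Ccl2. In Control cells these were 33.0% and 5.03%. Ccl12 joined them: Ccl7 with Ccl12 reached 1.63 in LOY cells and 2.39 in Control cells (within clusters 1.44 and 1.75), and Ccl2 with Ccl12 1.56 and 1.89 (within clusters 1.38 and 1.52).

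Ccl8 and Ccl24 were paired mostly through the clusters they share. Their ratio was 1.49 in LOY cells and 2.25 in Control cells over the class, and 1.02 (0.81 to 1.28) in LOY cells and 1.26 (1.04 to 1.501) in Control cells within clusters. Ccl24 with Ccl2 was seen in 15 LOY cells where 23.9 were expected (0.63, interval 0.35 to 1.03) and in 80 Control cells where 58.7 were expected (1.36, 1.08 to 1.696). The median over 10 pairs was 1.21 in LOY cells and 1.90 in Control cells, and within clusters 1.06 and 1.39. No member was seen in 944 of 2664 LOY cells and 1539 of 3078 Control cells, and 4 or 5 members were seen in 51 LOY cells, with 15.2 expected if the genes were independent, and in 86 Control cells, with 9.52 expected.

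**Figure D5:**
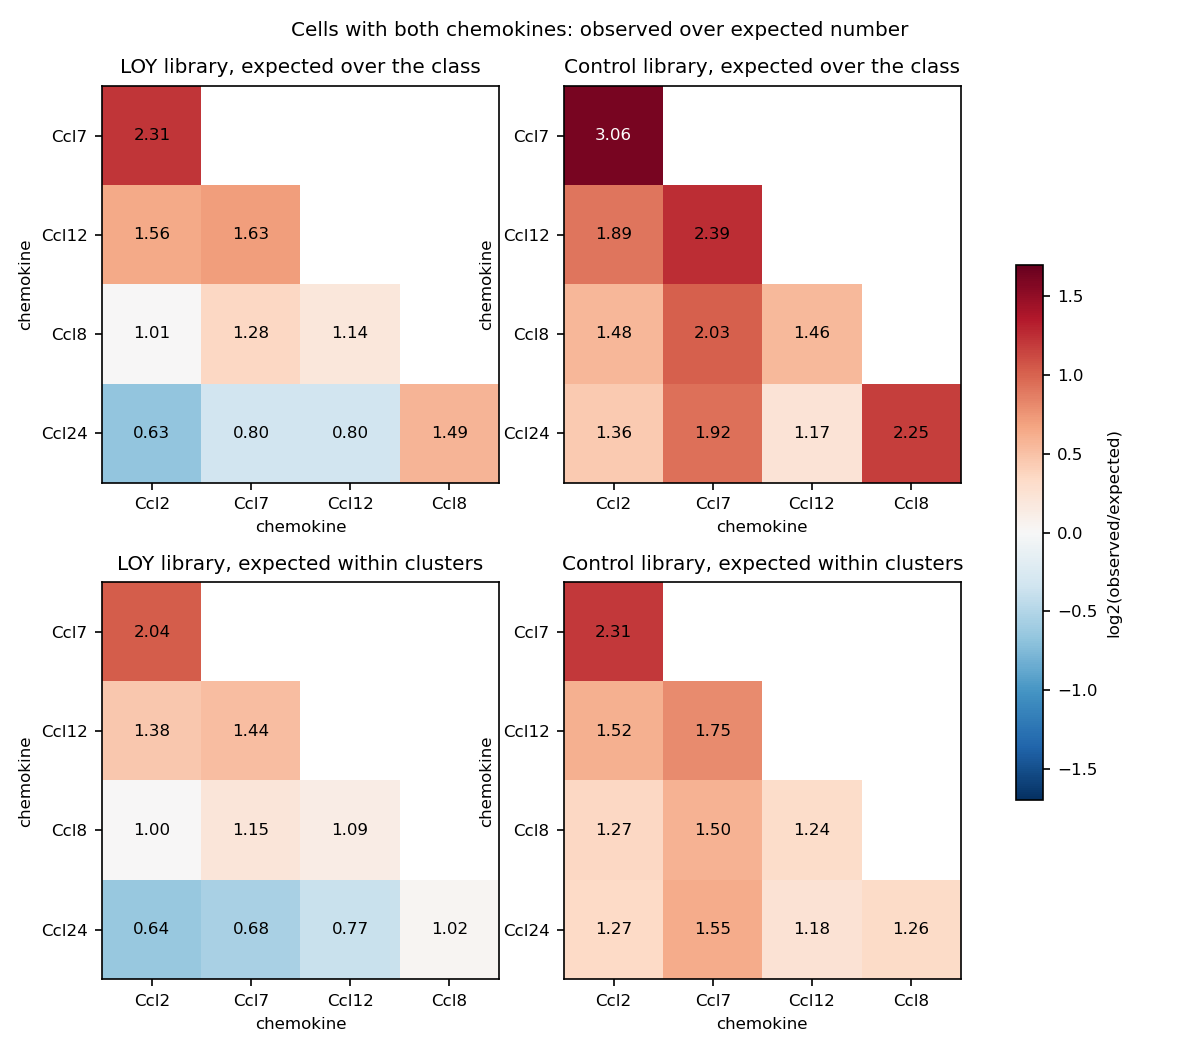
Number of macrophage-like cells with both chemokines of a pair over the number expected from their shares, at 2000 UMIs per cell, for the LOY library at left and the Control library at right; the upper row takes the expected number over the class, the lower row sums it over clusters. The pair Ccl2 and Ccl7 is the highest in each panel, from 2.04 to 3.06.

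Across 31 points (clusters and classes taken per library) the Pearson correlation of log2(CPM + 10) was highest between Ccl7 and Ccl12, at 0.92, and between Ccl2 and Ccl7, at 0.86, and lowest between Ccl2 and Ccl8, at 0.49. Ccl8 was as close to Ccl12 (0.74) and Ccl7 (0.73) as to Ccl24 (0.75). These points share libraries and depth, so the values are a description. Among 5600 genes, those most like Ccl8 were Cbr2, Gas6, Etv1, Folr2 and Mylk (0.96 to 0.94), of which Cbr2 and Folr2 are markers of resident macrophages. Those most like Ccl24 included Kitl, Fxyd2, Cd163 and Pros1 (0.90 to 0.88). Ccl12 was followed most closely by C3ar1, Ccl7, Srgap2, Tmem171 and Nectin4, Ccl7 by Cmklr1, Ccl12, Aoah, Tmem37 and Srgap2, and Ccl2 by Ccl7, Laptm4a, Ctsc, Zeb2os and Spred1.

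Among receptors for these chemokines, Ccr2 was highest in the Chil3 cluster of classical monocyte-like cells, at 819 CPM in LOY cells and 954 CPM in Control cells. In macrophage-like cells it had 184 CPM in the LOY library and 346 CPM in the Control library (0.53, 0.51 to 0.56). Ccr1 was highest in neutrophil-like cells (S100a9 cluster), at 656 CPM in LOY cells and 847 CPM in Control cells, and in macrophage-like cells it had 43.2 CPM in the LOY library and 22.1 CPM in the Control library. Over all kept cells the ratio was 0.81 (0.78 to 0.84) for Ccr2 and 1.03 (0.95 to 1.12) for Ccr1. By cluster, Ccr2 was past 1.5-fold below Control in the Cd209f, Cd209a and H2-Eb1 clusters. In the other compared clusters closest to macrophages it was within 1.5-fold, and in the Fcna cluster it had the highest receptor ratio. Ccr3, the receptor of Ccl24, had 1.503 CPM in LOY and 0.61 CPM in Control macrophage-like cells, and Ccr8 and Ackr1 had 0 UMIs in that class, as did Ackr2 in LOY cells with 1 UMI in Control cells. Eosinophils, the main target of Ccl24, were not detectable as a group: 0 of 5177 LOY cells and 1 of 6577 Control cells had UMIs of 2 or more of 6 eosinophil markers.

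Of 12 other CC chemokine ligands found, 6 were measured at 10 CPM or more in macrophage-like cells. Ccl5 (RANTES), which draws T cells, was past 1.5-fold above Control (137 CPM in LOY cells, 64.6 CPM in Control cells) and Ccl4 below it (253 and 653 CPM), while Ccl3 (164 and 233 CPM) and Ccl9 (655 and 469 CPM) were not past it. The median log2 ratio of the 6 was 0.32, against 0.02 over all genes and -0.24 over the 5 chemokines described here. Over all kept cells Ccl5 had 320 CPM (LOY) and 339 CPM (Control), and Ccl4 266 and 492 CPM. By cluster, the Ccl5 ratio was among the 2 lowest of these ligands in the Egr1, Cd209f and Slc40a1 clusters. It was among the 2 highest in the Fcna, Ifit2, Hist1h1b, H2-Eb1 and Cd209a clusters. The Ccl4 ratio was among the 2 highest in the Slc40a1 cluster. It was among the 2 lowest in the Ly6c2, Ifit2, Cd209f, Cd209a and Hist1h1b clusters.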

How the data were processed

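Raw UMI counts per gene and barcode from 1 LOY and 1 Control library (10x Genomics 3' kit, v3.1) were used as deposited by the authors, with no normalization. Cell Ranger 5.0.0 and mm10 are named in the submitters' processing notes, and nothing used here states the annotation release or barcode filter. A barcode was kept if it had 500 or more UMIs, 200 or more genes and no more than 10% of UMIs from mitochondrial genes. Doublets were removed by the highest scrublet scores at 0.8% per 1000 barcodes, 240 in the LOY library and 424 in the Control library, since the automatic threshold marked 0 LOY and 84 Control barcodes. Cells of the 2 libraries were clustered jointly on 2000 variable genes, chemokine genes left out (30 components, 15 neighbours, Leiden resolution 1, seed 0, no batch correction; Python 3.11.15, scanpy 1.11.5, igraph 0.11.9). A cluster took the cell type with the largest share of its markers present in 25% of cells or more. The larger number of such markers broke ties. These names are therefore not the study's.

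CPM are UMI sums of a cluster in a library over its total. Ratios are LOY over Control, and log2 ratios had 10 CPM added to each, which shrinks the ratio of low genes. Sums have exact Poisson, ratios exact conditional and shares exact Clopper-Pearson intervals (95%), and a count of 0 allows up to 3 counts. Co-detection is the number of cells with both genes over the number expected from their shares. No test was possible with a single library in each group. The steps were tested on simulated data with known changes. Alternatives were doublet handling, UMI and mitochondrial limits, clustering, pseudocounts, scaling and depth. Members, markers and gene lists were chosen with earlier results of these data known. Named genes are the 5 members, their receptors, the 2 highest and 2 lowest of each list in macrophage-like cells, the 5 genes most like each member and leading genes of clusters. C1qa, Gzma and Ptprc were named outside this rule. Of the genes the rule names, 2 are not reported here. Of the CC ligands, 2 symbols belong to more than 1 feature and were left out. GENCODE M21 (GRCm38) gave positions and RefSeq (GRCm38.p6) the promoter windows, which were at hand for 2 of the 5 members.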

Additional observations from a re-analysis of the deposited data

Results flagged for a closer look

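For Ccl7 and Ccl8 the difference between libraries ran past 1.5-fold in opposite ways in different clusters, with intervals of the ratio on both sides of 1. Ccl12 also had intervals above 1 in 2 clusters and below 1 in 3, but passed 1.5-fold above Control in 0. For Ccl7 the log2 ratio was -0.82 in the Cd209a cluster and 0.61 in the H2-Eb1 cluster, and without 1 Control cell, which held 34 of 94 UMIs, the value of the Cd209a cluster was -0.33. For Ccl8 it was -1.29 in the Egr1 cluster and 1.52 in the Ly6c2 cluster. The Ly6c2 value rests on 11 UMIs in 68 Control cells (23.5 CPM, near the 26.0 CPM of Control B cell-like cells), and the Egr1 value on 19 UMIs in 65 LOY cells. With 1 library per group the difference between clusters was not tested.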

How the results depend on the processing

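No paired analysis was possible because each group was 1 library. Under the alternatives tried no value past 1.5-fold changed sign. The log2 ratio in macrophage-like cells ran from -1.35 to -1.03 for Ccl2 and from -1.43 to -0.54 for Ccl24. For Ccl8, whose sum follows the clusters counted as macrophage-like, it ran from 0.0673 to 1.60. Values that left the 95% counting interval of the reported one follow, all as log2 ratios in macrophage-like cells. The automatic doublet threshold gave -1.19 for Ccl2, 0.16 for Ccl7, 1.60 for Ccl8 and -0.71 for Ccl24. That setting applied to the Control library alone (84 barcodes marked). In the LOY library, where 0 were marked, the 240 barcodes with the highest scores stayed removed, so the libraries had unlike doublet rules. Keeping doublets gave 1.32 for Ccl8 and -0.33 for Ccl12. A limit of 5% mitochondrial UMIs gave -1.21 for Ccl2, 0.13 for Ccl7, 0.92 for Ccl8 and -0.13 for Ccl12, and a minimum of 1000 UMIs gave 0.70 for Ccl8 and -0.98 for Ccl24. Resolution 0.5 gave -1.08 for Ccl2, 0.69 for Ccl8 and 0.0183 for Ccl12, separate clustering gave -1.03 for Ccl2, 0.25 for Ccl7 and 0.74 for Ccl8, and keeping chemokine genes in the clustering gave 0.92 for Ccl8. Pseudocounts of 50 and 1 CPM gave -1.08 for Ccl2 and -0.54 for Ccl24, and -0.97 for Ccl24. Thinning to 1000 UMIs gave 0.16 for Ccl7, 0.71 for Ccl8, -0.35 for Ccl12 and -0.66 for Ccl24. Of the settings chosen after seeing the data, all clusters closest to macrophages gave -1.18 for Ccl2, 0.0673 for Ccl8, -0.14 for Ccl12 and -1.43 for Ccl24, leaving out the Egr1 cluster gave -1.13 for Ccl2, -0.10 for Ccl7, 0.0845 for Ccl8, -0.43 for Ccl12 and -1.12 for Ccl24, and equal weights of 9 clusters gave -0.18 for Ccl7 and -0.41 for Ccl12. Over all kept cells the pseudocounts of 50 and 1 CPM gave -0.83 for Ccl2 and -0.78 for Ccl24, and -1.46 for Ccl24. At 1000 UMIs per cell the LOY share less the Control share was 2.22 for Ccl7, 9.59 for Ccl8 and 3.5 for Ccl12 percentage points, and it was -1.75 for Ccl24 with doublets kept. With the expected number summed over clusters, the median co-detection was 1.06 in LOY cells and 1.39 in Control cells. The median over 9 clusters moved under no pseudocount or scaling tried. The cause of each shift was not tested. The lower depth of the LOY library limits clusters with few LOY cells.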

Other observations

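The Chil3 cluster of classical monocyte-like cells (213 LOY and 229 Control cells) held more than Ccl2. Ccl12 had 76.2 CPM in LOY cells and 19.0 CPM in Control cells (ratio 4.02, interval 2.42 to 6.82) and Ccl7 69.2 CPM in LOY cells and 23.3 CPM in Control cells (2.96, 1.81 to 4.89). The B cell-like levels were 18.3 CPM (LOY) and 7.34 CPM (Control) for Ccl12, and 0 UMIs in LOY cells and 2.82 CPM in Control cells for Ccl7. Of the Control UMIs of Ccl7 in this cluster, 13 of 32 lay in 1 cell, and without it the level was 14.0 CPM. The same cell held 8 of 26 Ccl12 UMIs (13.2 CPM without it) and 16 UMIs of C1qa. The Gpnmb cluster, which held 1262 LOY cells and too few Control cells to compare, had LOY levels of 81.2 CPM of Ccl2, 141 CPM of Ccl7, 241 CPM of Ccl12, 530 CPM of Ccl8 and 20.0 CPM of Ccl24.

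Within the LOY library, 147 macrophage-like cells had a UMI of a Y-linked gene and 2991 had none, with medians of 4321 and 3294 UMIs per cell. Ccl2 had 132 CPM in the cells with a Y-linked UMI and 122 CPM in the cells without. Ccl12 had 315 CPM in the cells with a Y-linked UMI and 425 CPM in the cells without, whereas Ccl24 had 76.7 and 40.9 CPM, Ccl8 1441 and 1103 CPM and Ccl7 221 and 185 CPM. In the Control library 1398 macrophage-like cells had a Y-linked UMI and 1774 had none, with medians of 6290 and 4840 UMIs. There Ccl8 had 1085 and 457 CPM, Ccl24 95.2 and 75.1 CPM and Ccl2 341 and 285 CPM. Ccl7 had 196 and 177 CPM and Ccl12 507 and 486 CPM. Ccl2, Ccl7, Ccl8 and Ccl24 were thus higher in cells with a Y-linked UMI in both libraries, and Ccl12 in the Control library alone. Intervals overlapped for Ccl2 and Ccl7 in the LOY library and for Ccl12 in the Control library. The Cd209f cluster had 43.6 CPM of Y-linked genes in LOY cells and 126 CPM in Control cells. Over macrophage-like cells these were 15.9 and 111 CPM. The part of cluster make-up and depth in this split was not tested.

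Ccl11 (eotaxin-1), whose gene lies between Ccl7 and Ccl12, had 0 UMIs in macrophage-like cells of both libraries.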
